A study of Mus musculus with 12 samples.

Results

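Ribosomal proteins are the protein part of the cytosolic ribosome, and the genes that encode them are described here in mouse neutrophils from 3 sources. They were taken by symbol: Rpl, Rps or Rplp followed by a number, with at most one further letter among a, x, y and l and one further digit, or Rpsa, with -ps symbols (pseudogenes) left out. The rule found 84 of the 23621 symbols of the count table, of which 51 belong to the large and 33 to the small subunit. Neutrophils had been isolated from the bone marrow of naive mice (Naive, 4 libraries, numbered 1 to 4) and from the peripheral blood of mice with liver metastases, as high-density neutrophils (HDN, 4 libraries, numbered 3, 4, 5 and 7) and low-density neutrophils (LDN, 4 libraries with the same numbers as HDN). All 12 libraries were labelled as female Balb/c mice of 8 weeks. The tumour line and any pooling of animals were not stated. The labels do not say whether the libraries of a group are separate animals, and p-values therefore reflect only how far these libraries spread. Tissue and tumour changed together between Naive and the blood groups, whose column names also carry a tag that those of Naive lack, and these cannot be told apart.

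Each ribosomal subunit is built in the nucleolus from ribosomal RNA and a fixed set of these proteins, most of them present once per ribosome. Their messenger RNAs are known for a run of pyrimidines at the very 5′ end, the TOP motif, through which mTOR signalling and the protein LARP1 set how well they are translated. In the neutrophil lineage, dividing precursors in the marrow are known to make many ribosomes, whereas mature neutrophils in blood hold few. Most of these genes also have processed pseudogenes, copies of the spliced messenger elsewhere in the genome, so that a read can fit several places.

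Library totals ran from 18113922 to 30044508 counts, and 3 counts, the limit used for a gene with no reads, corresponded to between 0.0953 and 0.153 CPM (the usual unit of counts scaled to a common library size). Summed CPM of 10 neutrophil markers ran from 179100 to 212400 in Naive, 81950 to 132700 in HDN and 190900 to 244000 in LDN. Of these 10, 2 were higher and 5 lower in HDN against Naive, and 6 higher and 1 lower in LDN against HDN. Hbb-bs, Hbb-bt, Hba-a1 and Hba-a2 had 0 reads. The 10 markers of neutrophil precursors summed to 28210 to 30970 CPM in Naive, 211.7 to 1182 in HDN and 9742 to 19250 in LDN. All 10 were higher in LDN than in HDN and lower in HDN than in Naive. Summed markers of B cells ran from 19.5 to 50.6 CPM in Naive, 0.496 to 2.93 in HDN and 1.82 to 8.32 in LDN. Those of T cells ran from 192.5 to 266.5, 3.78 to 20.6 and 32.6 to 49.7 CPM in the same order. Those of platelets ran from 113.5 to 124.5, 9.42 to 11.5 and 28.4 to 33.8 CPM. These sums were highest in Naive and lowest in HDN. Single T cell markers were mixed: of 6 tested, 2 were higher and 2 lower in HDN against Naive. In LDN against Naive, 3 T cell markers were higher and 2 lower. Summed monocyte markers ran from 614.7 to 823.5, 343.3 to 548.8 and 246.5 to 339.2 CPM. Of 7 monocyte markers tested, 4 were higher and 1 lower in LDN against HDN, although their sum was lowest in LDN. Summed red cell markers ran from 0.306 to 1.70, 0.190 to 0.458 and 0 to 0.0931 CPM. The part of precursor and other cells in the results below was not tested, and in bulk samples a change in cell mix and a change of RNA per cell cannot be told apart.

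The region around the annotated transcription start is shown for 6 of the genes the results turn on, from 50 bases before to 20 bases from the start on, 5′ to 3′ on the gene's strand, from RefSeq (GRCm38.p6). Rpsa, Rpl39 and Rplp0 differed most between LDN and Naive, Rps9 was by far the most abundant, Rps27 did not rise, and Rpl22l1 fell in HDN. Capitals mark a run of at least 8 C or T within 30 bases of the start and, upstream, the letters TATAAA.
Rpsa: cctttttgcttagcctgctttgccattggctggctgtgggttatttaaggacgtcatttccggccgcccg
Rpl39: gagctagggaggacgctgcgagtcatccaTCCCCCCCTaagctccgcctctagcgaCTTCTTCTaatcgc
Rplp0: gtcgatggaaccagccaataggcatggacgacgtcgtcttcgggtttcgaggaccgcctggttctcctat
Rps9: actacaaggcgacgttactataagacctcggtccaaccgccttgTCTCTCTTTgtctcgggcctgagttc
Rps27: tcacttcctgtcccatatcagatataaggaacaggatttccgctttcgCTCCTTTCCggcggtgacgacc
Rpl22l1: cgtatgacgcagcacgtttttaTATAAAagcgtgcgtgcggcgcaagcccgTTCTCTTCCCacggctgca
These windows lie at chr9:120127716-120127785 (plus strand), chrX:37085203-37085272 (minus), chr5:115559417-115559486 (plus), chr7:3703991-3704060 (plus), chr3:90213629-90213698 (minus) and chr3:28805458-28805527 (plus), in the order printed. The RefSeq table held promoter windows of 300 bases (250 before and 50 from the start on) for 63 of the 84 genes, some with several starts. A pyrimidine run of at least 8 within 30 bases of a start was present for 35 of them (55.6%), against 25.7% of 26962 other genes. The letters CCGGAAGT, searched on both strands of the 300 bases, were present for 12 (19.0%, others 4.27%), and AAGATGGC for 6 (9.5%, others 3.17%). TATAAA in the 40 bases before the start was found for Rpl22l1 alone (1.6%, others 2.78%). Genes with and without the pyrimidine run had median log2 fold changes of 0.74 and 0.73 between LDN and HDN, 0.34 and 0.57 between HDN and Naive, and 1.23 and 1.26 between LDN and Naive. Such matches are a description of these letters in these windows.

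As a share of all counts, the 84 genes together took 0.344%, 0.335%, 0.375% and 0.358% in Naive libraries 1 to 4. The same share was 0.541%, 0.725%, 0.559% and 0.567% in HDN 3, 4, 5 and 7, and 0.764%, 0.894%, 0.709% and 0.780% in LDN 3, 4, 5 and 7. Naive was lowest with no overlap, and LDN and HDN overlapped because HDN 4 lay above LDN 5. HDN exceeded Naive by 0.245 percentage points, a ratio of 1.69 (exact two-sided permutation p = 0.0286, adjusted 0.0367 over 9 share tests), and LDN exceeded Naive by 0.433 points, a ratio of 2.23 (same p and adjusted p). The p of 0.0286 is the smallest that 4 against 4 libraries can give.

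LDN exceeded HDN by 0.189 points, a ratio of 1.32, and this difference did not pass (exact permutation p = 0.0571, adjusted 0.0643). LDN was above the HDN library of its own number in 4 of 4 pairs, by 0.150 to 0.223 points, for which exact sign flips gave p = 0.125, the smallest possible with 4 pairs. Without HDN 4 the difference was 0.231 points and without Rps9 0.211 points (exact permutation p = 0.0286 for each). Counted against the library without its 20 most abundant genes, the shares averaged 0.495% in Naive, 0.721% in HDN and 1.05% in LDN. By this measure LDN exceeded HDN by 0.334 points (exact permutation p = 0.0286). The genes with at least 50% of their 50-base stretches found in no other gene gave 0.0890 points (exact permutation p = 0.0857). Leaving out genes that have a -ps symbol gave 0.174 points, and adding the -ps counts 0.193 (exact permutation p = 0.0571 for each). These last measures left LDN and HDN overlapping, and none passed.

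By subunit, the large-subunit genes took 0.155% ± 0.011 (SD, n = 4) of all reads counted in Naive, against 0.232% ± 0.039 for HDN and 0.337% ± 0.036 for LDN. These 3 ranges did not overlap, and LDN exceeded HDN by 0.104 points (exact permutation p = 0.0286, adjusted 0.0367). Paired by library number, LDN was above HDN in 4 of 4 pairs (exact sign-flip p = 0.125, the smallest possible). The small-subunit genes averaged 0.198% ± 0.0079, 0.365% ± 0.049 and 0.450% ± 0.042. For them LDN exceeded HDN by 0.0842 points, which did not pass (exact permutation p = 0.0857). A single small-subunit gene, Rps9, held 17.5% to 21.5% of the ribosomal protein counts of Naive, 25.9% to 30.9% of those of HDN and 17.1% to 19.5% of those of LDN. Without it, small-subunit genes made up 45.4% to 46.5% of the rest in Naive, 45.0% to 46.8% in HDN and 47.3% to 48.2% in LDN.

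**Figure D1:**
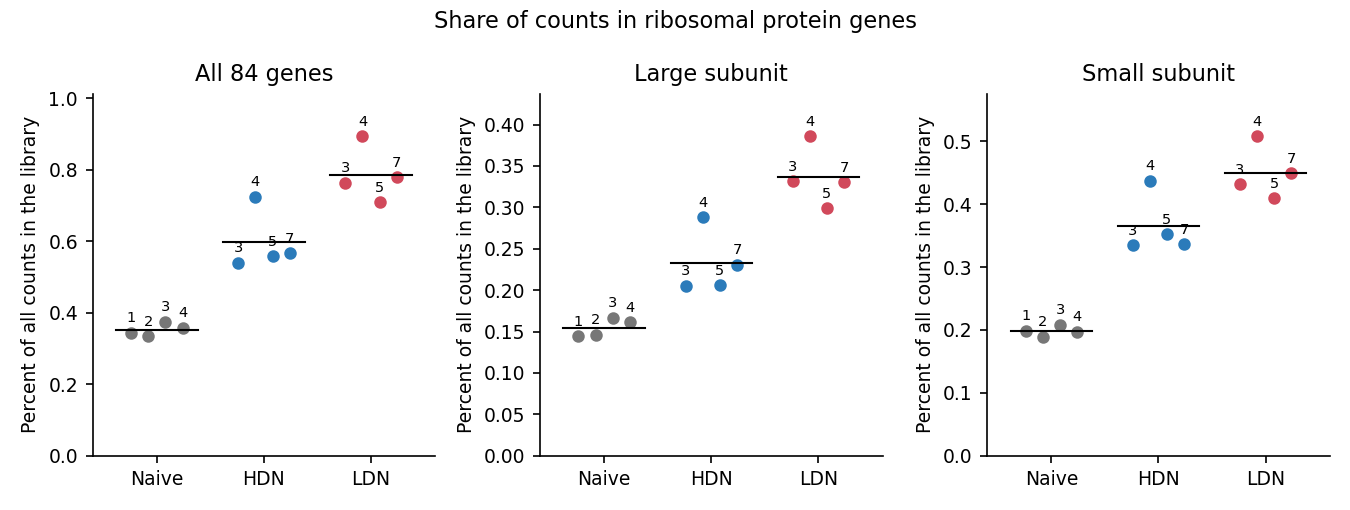
Percent of all counts in each library that fell in all 84 ribosomal protein genes, the large-subunit genes and the small-subunit genes, with points labelled by library number and lines at the mean of the 4 libraries of a group. Naive lies lowest in each panel, HDN 4 is the highest HDN library at 0.725% for all genes, and LDN and HDN do not overlap for the large subunit.

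Gene by gene, 80 of the 84 passed the filter on low counts, all 33 of the small and 47 of the large subunit. The other 4 had too few reads to be tested: Rpl26 and Rpl10l had 0 reads in all libraries, Rpl39l had 7 and Rpl30 had 17. For Rpl26 and Rpl30, 28.7% and 23.6% of the 50-base stretches were found in no other gene. Whether the counting lost reads of these genes was not tested. A gene was called changed at an adjusted p (Benjamini-Hochberg over all 10604 genes tested) below 0.05 in edgeR's quasi-likelihood test, and levels are CPM scaled by TMM factors. The comparisons share libraries (Naive serves as reference in both of its comparisons, and HDN enters 2), so their counts are not independent of each other. How often groups did not overlap, and how their means were ordered, was not counted over all genes. Such counts below therefore have no share of all genes beside them.

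In LDN against HDN, 66 of the 80 genes were higher, 0 were lower and 14 were called in neither direction. Of all genes tested, 26.0% were higher and 20.3% lower. The median log2 fold change was 0.73 over the 80 genes and 0.023 over all genes. The 66 comprised 37 of 47 large-subunit and 29 of 33 small-subunit genes, and in 58 of them no LDN library overlapped an HDN library. With library totals as the only scaling, 40 were higher and 1 was lower. That scaling moved the median of all genes to -0.28, and the median of the 80 genes stayed 0.71 above it, as it was with TMM. With the library number as a block, 66 were higher and 1, Rps27l, was lower (-0.44, adjusted p = 0.033). At an unadjusted p below 0.05 in edgeR, 0 were lower, and DESeq2 and limma-voom also called 0 lower.

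In HDN against Naive, 40 genes were higher and 3 lower, against 30.0% of all genes higher and 29.9% lower, with medians of 0.38 over the 80 genes and 0.039 over all genes. Of the 47 large-subunit genes 22 were higher and 1 lower, and of the 33 small-subunit genes 18 were higher and 2 lower. In 33 of the 40 the 2 groups did not overlap. Scaled by totals without the 20 most abundant genes, 34 were higher and 8 lower.

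In LDN against Naive, 71 genes were higher and 0 lower, against 27.4% and 26.8% of all genes, with medians of 1.22 and 0.015. At an unadjusted p below 0.05 in edgeR 0 were lower, and DESeq2 and limma-voom called 0 lower. No library of 1 group overlapped the other in 69 of the 71. By mean level, 61 of the 80 genes followed the order Naive, HDN, LDN from low to high, and 15 the order HDN, Naive, LDN. The other 4 were Rps27, Rps27l and Rpl29, lowest in LDN, and Rpl34, highest in HDN.

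**Figure D2:**
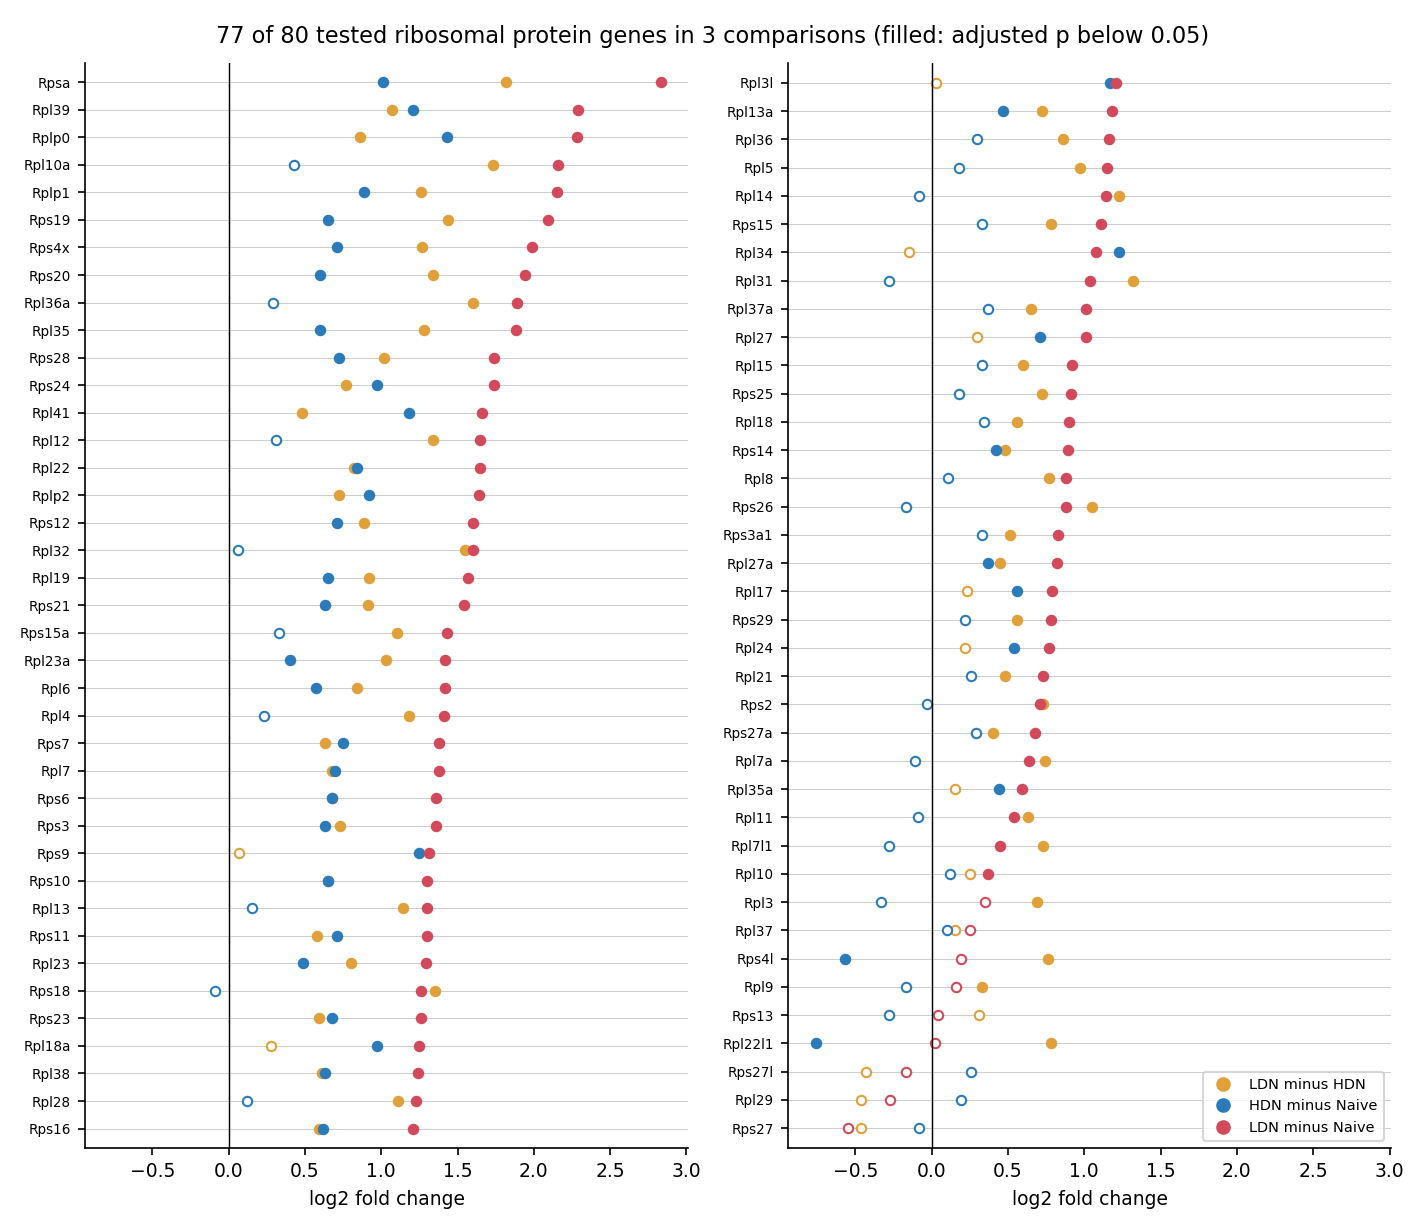
Log2 fold changes of 77 of the 80 tested genes in the 3 comparisons, sorted by LDN minus Naive from the upper left to the lower right. Filled points passed at an adjusted p below 0.05; LDN minus Naive runs from 2.83 for Rpsa to -0.55 for Rps27, and the HDN minus Naive points spread over both sides of 0.

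The stalk of the large subunit, which recruits elongation factors to the ribosome, is built from Rplp0 and the acidic proteins Rplp1 and Rplp2, and all 3 genes passed as higher in every comparison, Rplp2 between LDN and HDN not under every scaling. Rplp0, the base of the stalk, measured 106.5, 90.9, 95.6 and 87.4 CPM in Naive 1 to 4, 259.4, 351.7, 246.9 and 163.7 in HDN 3, 4, 5 and 7, and 420.9, 556.1, 431.7 and 442.9 in LDN 3, 4, 5 and 7. The 3 groups were fully apart, with log2 fold changes of 1.43 ± 0.19 (SE) from Naive to HDN (adjusted p = 2.0e-05) and 0.86 ± 0.19 from HDN to LDN (adjusted p = 0.0022). The step from Naive to HDN was the highest of all 80 genes. Rplp1 measured 66.8 to 79.9 CPM in Naive, 121.1, 203.1, 115.8 and 92.1 in HDN, and 274.7, 408.0, 281.4 and 314.0 in LDN. Again no group overlapped another, and the larger step was from HDN to LDN (1.26 ± 0.21, adjusted p = 0.00033). Rplp2 rose by 0.92 ± 0.19 and then 0.72 ± 0.19, and its LDN libraries (125.5 to 177.4 CPM) overlapped HDN 4 at 129.6 CPM. The latter step did not pass with total-count scaling (0.43, adjusted p = 0.067).

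In the small subunit, Rpsa differed most between LDN and the other groups. It encodes a small-subunit protein that is also known as the laminin receptor. Its level was 54.2, 47.2, 52.6 and 52.0 CPM in Naive 1 to 4, 105.5, 153.3, 96.1 and 59.2 in HDN, and 352.2, 459.3, 335.9 and 313.4 in LDN. HDN 7 came close to Naive, and every LDN library was above every HDN library. The log2 fold changes were 1.82 ± 0.23 for LDN against HDN (adjusted p = 3.3e-05), 1.01 ± 0.22 for HDN against Naive (adjusted p = 0.0015) and 2.83 ± 0.24 for LDN against Naive (adjusted p = 4.5e-07), the last a 7.09-fold ratio of mean levels.

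Rps19, whose loss of 1 copy causes Diamond-Blackfan anaemia in people, rose from 19.8 to 21.1 CPM in Naive to 20.5 to 44.7 in HDN and 79.1 to 108.7 in LDN. HDN 7, at 20.5 CPM, lay within the Naive range, and the log2 fold change of LDN against HDN was 1.44 ± 0.19 (adjusted p = 5.8e-05). Rps4x, the X-linked copy of its family, had 42.4 to 65.1 CPM in Naive, 77.0 to 102.8 in HDN and 180.7 to 224.2 in LDN, with no overlap. Its log2 fold changes were 0.71 ± 0.15 and then 1.27 ± 0.15 (adjusted p = 0.0011 and 2.5e-05). Rps6, whose protein is the substrate that gave S6 kinase its name, rose by 0.68 ± 0.16 in each step (adjusted p = 0.0027 and 0.0039), from 5.69 to 8.18 CPM in Naive to 10.2 to 13.2 in HDN and 14.5 to 19.95 in LDN. With total-count scaling its step from HDN to LDN was 0.38 and did not pass (adjusted p = 0.10). Rps27a, which encodes a fusion of ubiquitin and a ribosomal protein, went from 29.3 to 33.0 CPM to 29.7 to 43.3 and 44.7 to 52.4, and passed for LDN against HDN (0.40 ± 0.12, adjusted p = 0.018) but not for HDN against Naive (0.29 ± 0.12, adjusted p = 0.062). The first of these calls was lost with total-count scaling (0.11, adjusted p = 0.35), in the fit of the 2 groups alone (0.35, adjusted p = 0.0555) and without LDN 3, LDN 4 or LDN 5 (0.32 to 0.34, adjusted p = 0.058 to 0.066). The second passed with total counts (0.34, adjusted p = 0.0083), without Naive 1 (0.32, adjusted p = 0.042) and without HDN 7 (0.39, adjusted p = 0.0065).

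Rps9 and Rps3, which encode proteins at the entry of the messenger channel, are both among the 6 most abundant by CPM. Per kb of transcript, Rps9 was the most abundant of the 84 genes at 1689 CPM per kb over all libraries, followed by Rpl41 at 358.7. Its level was 782.0, 635.2, 603.8 and 578.0 CPM in Naive, 1507, 1796, 1710 and 1149 in HDN, and 1441, 1785, 1596 and 1642 in LDN. Both blood groups lay above Naive and overlapped each other throughout. HDN against Naive gave 1.25 ± 0.15 (adjusted p = 1.0e-05), whereas LDN against HDN gave 0.07 ± 0.15 (adjusted p = 0.74). Rps3 measured 217.8 to 251.4 CPM in Naive, 274.6 to 473.7 in HDN and 546.6 to 682.5 in LDN, with steps of 0.63 ± 0.15 and 0.73 ± 0.15, and no group overlapped another.

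**Figure D3:**
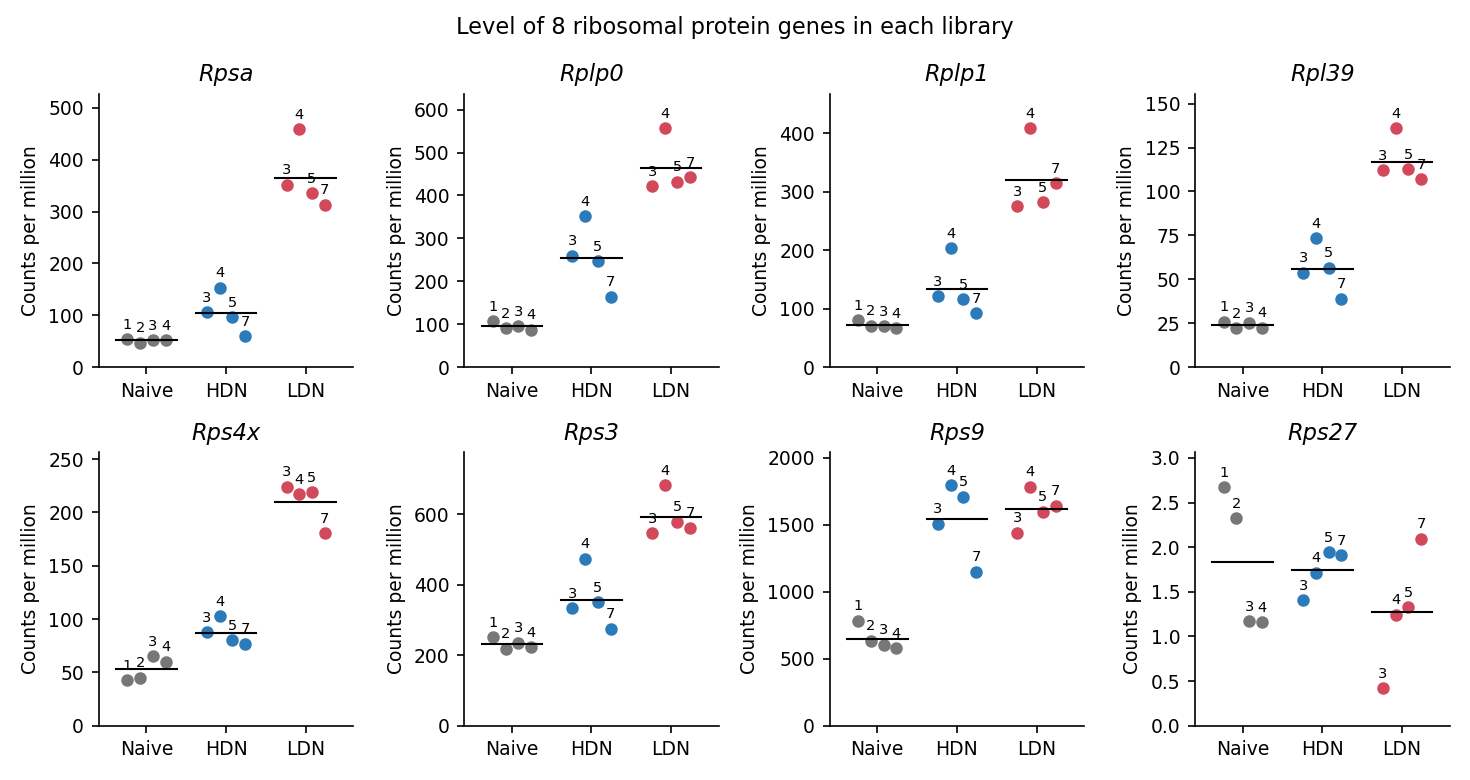
CPM of 8 genes in each of the 12 libraries, with points labelled by library number, lines at group means and axes from 0. Rpsa and Rps4x stand apart in LDN, Rps9 is at about the same level in HDN and LDN, and Rps27, with at most 2.67 CPM, shows no order of the groups.

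Rpl39, a small protein lining the exit tunnel of the large subunit, had 22.1 to 25.9 CPM in Naive, 53.7, 73.3, 56.6 and 39.0 in HDN, and 112.2, 135.9, 112.7 and 106.9 in LDN. The groups were fully apart, and the log2 fold change of LDN against Naive, 2.29 ± 0.17 (adjusted p = 1.6e-07), was second only to that of Rpsa. Rpl41, the shortest of these proteins, rose mainly from Naive (66.1 to 83.3 CPM) to HDN (128.5 to 214.9), by 1.18 ± 0.16 (adjusted p = 2.4e-05). Its further step to LDN (204.9 to 280.2 CPM) was 0.48 ± 0.16 (adjusted p = 0.025), and it no longer passed without HDN 3, HDN 7, LDN 4 or LDN 7 (0.32 to 0.43, adjusted p = 0.056 to 0.10), with total-count scaling (0.19, adjusted p = 0.24) or in the fit of the 2 groups alone (0.43, adjusted p = 0.060). Rpl4 and Rpl8, core proteins of the large subunit, are described next. Rpl4 measured 85.2 to 155.4 CPM in Naive, 145.5 to 156.2 in HDN and 273.1 to 398.0 in LDN. Its step from HDN to LDN passed (1.18 ± 0.18, adjusted p = 0.00018) and that from Naive to HDN did not (0.23 ± 0.18, adjusted p = 0.28). Rpl8 likewise stood at 149.5 to 170.0, 139.8 to 228.6 and 246.9 to 351.8 CPM, with 0.11 ± 0.16 (adjusted p = 0.55) and then 0.77 ± 0.16 (adjusted p = 0.0014).

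Rpl32 was among the genes with a large step between the blood fractions and none before it. Its levels were 70.1, 67.9, 83.6 and 73.9 CPM in Naive, 67.6, 104.8, 70.2 and 64.6 in HDN, and 207.0, 272.4, 211.7 and 206.1 in LDN. The log2 fold change was 0.06 ± 0.16 for HDN against Naive (adjusted p = 0.78) and 1.55 ± 0.16 for LDN against HDN (adjusted p = 8.9e-06). Rpl10a and Rpl36a, at low levels, had 2.83 to 4.47 and 1.76 to 2.64 CPM in Naive, 4.03 to 6.61 and 2.09 to 2.96 in HDN, and 15.2 to 19.1 and 6.48 to 9.41 in LDN. LDN against HDN was 1.73 ± 0.20 for Rpl10a (adjusted p = 1.6e-05) and 1.60 ± 0.20 for Rpl36a (adjusted p = 4.1e-05). HDN against Naive was 0.43 ± 0.20 for Rpl10a (adjusted p = 0.079) and 0.29 ± 0.21 for Rpl36a (adjusted p = 0.24). Without HDN 5 that of Rpl10a passed (0.52, adjusted p = 0.046). Of the 50-base stretches of Rpl10a and Rpl36a, 11.9% and 14.5% were found in no other gene, so their levels are uncertain.

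Rpl5 and Rpl11 encode the proteins that carry the 5S ribosomal RNA and, when free, bind and hold back Mdm2, the ubiquitin ligase of p53. Both were higher in LDN than in HDN, Rpl5 by 0.97 ± 0.26 (adjusted p = 0.0084) and Rpl11 by 0.63 ± 0.16 (adjusted p = 0.0066). Without LDN 3 that of Rpl5 was 0.71 and did not pass (adjusted p = 0.051). With total-count scaling neither passed (0.65, adjusted p = 0.088, and 0.34, adjusted p = 0.14). Neither passed for HDN against Naive (0.18 ± 0.26, adjusted p = 0.58, and -0.09 ± 0.16, adjusted p = 0.66). Rpl11 measured 9.63 to 12.01 CPM in Naive, 8.72 to 12.9 in HDN and 13.2 to 19.3 in LDN. The difference of LDN from Naive was 0.54 ± 0.16 (adjusted p = 0.012), and it no longer passed without Naive 2 (0.46, adjusted p = 0.056) or without LDN 4 (0.40, adjusted p = 0.057). It was also lost with upper quartile scaling (0.37, adjusted p = 0.071), with total counts (0.32, adjusted p = 0.17) and without the 20 most abundant genes (0.25, adjusted p = 0.25). Rpl13a, which also takes part in the silencing of inflammatory messengers in myeloid cells, rose from 83.3 to 102.3 CPM to 100.8 to 173.4 and 185.3 to 256.9. Its step to HDN was 0.47 ± 0.16 (adjusted p = 0.024) and did not pass without Naive 2, Naive 4 or HDN 4 (0.29 to 0.42, adjusted p = 0.072 to 0.078), with upper quartile scaling (0.36, adjusted p = 0.069) or without the 20 most abundant genes (0.31, adjusted p = 0.089), and the step to LDN was 0.72 ± 0.16 (adjusted p = 0.0029). Rpl3, near the peptidyl transferase centre, and Rpl10, which joins the large subunit late, differed less from Naive. Rpl3 was higher in LDN than in HDN (0.69 ± 0.16, adjusted p = 0.0040), which did not pass with total-count scaling (0.37, adjusted p = 0.15). HDN against Naive was -0.33 ± 0.16 for Rpl3 (adjusted p = 0.095). This fall passed with upper quartile scaling (-0.43, adjusted p = 0.038) and without HDN 7 (-0.46, adjusted p = 0.022). LDN against Naive was 0.35 ± 0.16 for Rpl3 (adjusted p = 0.083) and 0.37 ± 0.14 for Rpl10 (adjusted p = 0.042). The latter was lost under every other scaling, with 0.32 for RLE (adjusted p = 0.078), 0.20 for upper quartile (adjusted p = 0.26), 0.15 for total counts (adjusted p = 0.45) and 0.08 without the 20 most abundant genes (adjusted p = 0.66). It was also lost with no filter (0.32, adjusted p = 0.092), in DESeq2 (0.32, adjusted p = 0.081), in the fit of the 2 groups alone (0.35, adjusted p = 0.051) and when any of Naive 2, 3 or 4 or LDN 3, 4 or 7 was left out (0.21 to 0.37, adjusted p = 0.074 to 0.24).

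Rpl22l1 and Rps4l were among the 3 genes that fell from Naive to HDN. Rpl22l1 measured 8.26, 6.57, 7.37 and 5.91 CPM in Naive, 3.78, 3.34, 2.89 and 6.64 in HDN, and 8.06, 6.32, 5.97 and 8.19 in LDN. HDN 7 lay among the Naive libraries, and the fall was -0.76 ± 0.25 (adjusted p = 0.017). It was lost with total-count scaling (-0.63, adjusted p = 0.087), without Naive 1 (-0.65, adjusted p = 0.062) and without HDN 5 (-0.61, adjusted p = 0.052). Rps4l had 2.18 to 2.95 CPM in Naive, 1.37 to 1.94 in HDN and 2.14 to 3.88 in LDN. Every HDN library was below every Naive library. Rps4l fell by 0.57 ± 0.22 (adjusted p = 0.040). The call of Rps4l was lost without any of Naive 2, 3 or 4 or HDN 3, 4 or 7 (adjusted p = 0.056 to 0.10) and with no filter (adjusted p = 0.062). Both were higher in LDN than in HDN, by 0.78 ± 0.25 (adjusted p = 0.020) and 0.76 ± 0.22 (adjusted p = 0.013) in the order named. The first was lost without HDN 5, LDN 3 or LDN 7 (0.63 to 0.65, adjusted p = 0.054 to 0.085) and the second without LDN 5 (0.54, adjusted p = 0.060). With total-count scaling neither passed (0.44, adjusted p = 0.24, and 0.46, adjusted p = 0.0805). That of Rpl22l1 was also lost without the 20 most abundant genes (0.60, adjusted p = 0.105) and in the fit of the 2 groups alone (0.72, adjusted p = 0.072).

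Of the 80 genes, 5 passed in none of the comparisons, Rpl29, Rpl37, Rps13, Rps27 and Rps27l. Rps27, with 471 reads in all, measured 2.67, 2.32, 1.17 and 1.161 CPM in Naive, 1.41, 1.72, 1.94 and 1.91 in HDN, and 0.417, 1.25, 1.33 and 2.09 in LDN. The libraries of every group overlapped those of the others. Only 1.35% of the 50-base stretches of Rps27 were found in no other gene, so its level is uncertain. Rpl29 had 127 reads in all and at most 0.699 CPM in any library. Rpl37 and Rps13 were better covered, with 10420 and 4004 reads, and LDN against HDN was 0.15 ± 0.15 (adjusted p = 0.44) and 0.31 ± 0.16 (adjusted p = 0.11). Rpl34, at no more than 1.30 CPM, was higher in HDN than in Naive (1.23 ± 0.31, adjusted p = 0.0041) and did not pass for LDN against HDN (-0.15 ± 0.29, adjusted p = 0.70). Rpl31 passed between the blood fractions, from 4.99 to 6.99 CPM in HDN to 12.9 to 15.8 in LDN (1.32 ± 0.16, adjusted p = 2.8e-05), with -0.28 ± 0.16 for HDN against Naive (adjusted p = 0.15; without the 20 most abundant genes -0.43, adjusted p = 0.031).

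To see which genes moved apart from the others, each library was scaled to its summed ribosomal protein counts. LDN against HDN then gave 23 genes higher and 14 lower, where 10.0% of all genes were higher and 56.6% lower on this scale. The highest were Rpsa (1.17), Rpl10a (1.05) and Rpl36a (0.90), and the lowest Rps27 (-1.17), Rpl29 (-1.10) and Rps27l (-1.10). Rps9 was lower by 0.61. HDN against Naive gave 5 higher, namely Rplp0 (0.70), Rps9 (0.55), Rpl39 (0.50), Rpl3l (0.49) and Rpl41 (0.47), and 36 lower (11.7% and 55.4% of all genes). LDN against Naive gave 15 higher and 34 lower (5.14% and 81.3%), led by Rpsa (1.43), Rpl39 (0.90) and Rplp0 (0.90). Since Rps9 alone is 17.1% to 30.9% of the total used for scaling, the counts depended on it. Scaled to the total without Rps9, 24 were lower in LDN against HDN, and in HDN against Naive 11 were higher and 22 lower.

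Several ribosomal proteins have a second gene, and the share of the pair taken by that gene needs no scaling between libraries. Rpl22l1 made up 22.1%, 19.0%, 17.97% and 17.2% of the Rpl22 and Rpl22l1 counts in Naive 1 to 4, 7.57%, 4.42%, 5.49% and 12.96% in HDN, and 8.09%, 5.38%, 6.07% and 9.28% in LDN. Every blood library was below every Naive library, while HDN and LDN overlapped. Rpl22 itself rose from 28.0 to 33.6 CPM in Naive to 44.6 to 72.2 in HDN and 80.1 to 111.2 in LDN. Rpl7l1, which is also known to act in assembly of the large subunit, made up 42.4% ± 6.1 (SD, n = 4) of its pair with Rpl7 in Naive, 26.6% ± 3.2 in HDN and 28.0% ± 7.4 in LDN. Rpl7l1 itself averaged 56.1, 46.15 and 76.4 CPM in Naive, HDN and LDN, and Rpl7 78.3, 127.4 and 204.2. Rpl7l1 passed as higher in LDN than in HDN (0.73, adjusted p = 0.00045) and than in Naive (0.45, adjusted p = 0.0086). The latter was lost with upper quartile scaling, with total counts and without the 20 most abundant genes (0.15 to 0.28, adjusted p = 0.079 to 0.35). HDN against Naive was -0.28 (adjusted p = 0.069), and without HDN 4 -0.38 (adjusted p = 0.012). Rps4l made up 4.73% ± 1.06 of its pair with Rps4x in Naive, 1.97% ± 0.33 in HDN and 1.37% ± 0.26 in LDN.

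Rpl3l, known as the form of heart and skeletal muscle, went the other way. It made up 35.9%, 33.3%, 27.7% and 25.7% of its pair with Rpl3 in Naive, 59.8%, 61.6%, 57.2% and 45.5% in HDN, and 38.8%, 43.3%, 50.6% and 46.8% in LDN. Both blood groups were above Naive with no overlap. Its level was 3.56 to 5.81 CPM in Naive, 8.13 to 11.4 in HDN and 8.14 to 11.4 in LDN. All of the 50-base stretches of the Rpl3l transcript were found in no other gene, against 14.4% of those of Rpl3. Reads of Rpl3 may therefore have been lost, and the size of the Rpl3l share is uncertain. For these 4 pairs, both blood groups differed from Naive at an exact permutation p of 0.0286, which became 0.0536 when adjusted over 15 paralog tests, so that none passed. Between LDN and HDN the smallest exact permutation p was 0.0571, for Rps4l (-0.599 points, lower in 4 of 4 pairs). Rpl3l differed by -11.2 points (exact permutation p = 0.0857), and without HDN 7 by -14.7 points (exact permutation p = 0.0286). Rps27l, which is induced by p53, was 87.2% ± 5.1, 88.8% ± 2.6 and 89.7% ± 4.9 of its pair with Rps27, with all groups overlapping. Of the 50-base stretches of Rps27, 1.35% were found in no other gene, against 77.6% for Rps27l. The size of this share is therefore uncertain too. The testis forms Rpl10l and Rpl39l had 0 and 7 reads in all.

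**Figure D4:**
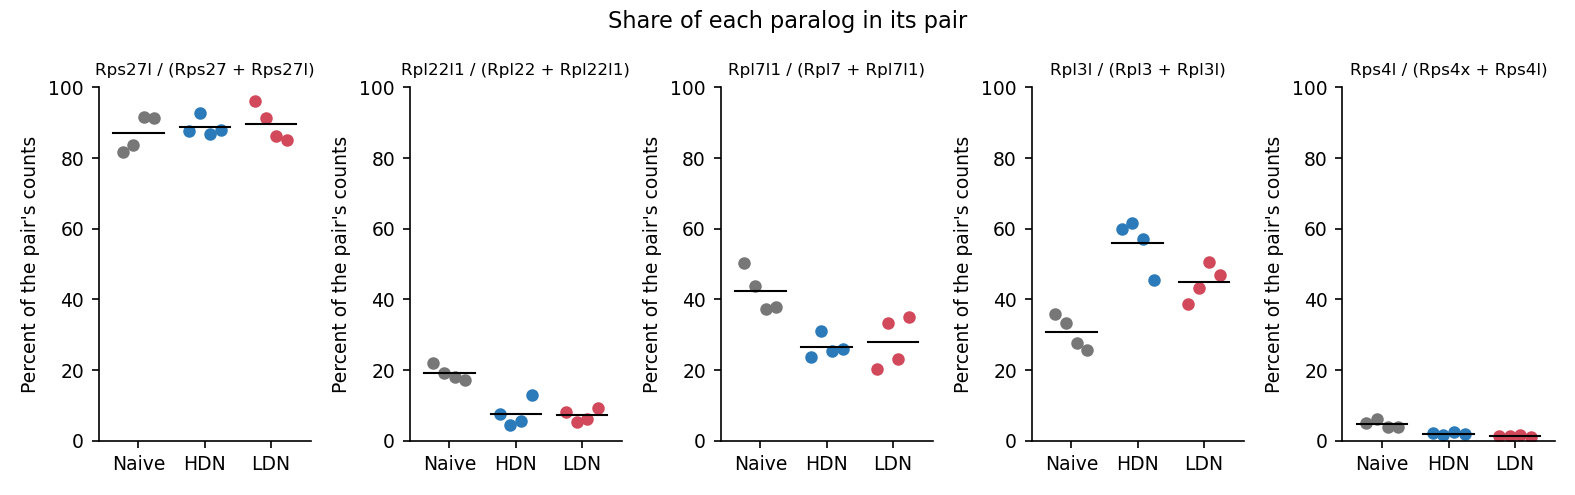
Share of the second gene in the summed counts of its pair, in percent, for the 5 pairs with at least 100 reads of that gene, with 1 point per library and lines at group means. Rpl22l1, Rpl7l1 and Rps4l are lower and Rpl3l higher in both blood groups than in Naive, and Rps27l overlaps in all groups.

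Because processed copies can take or lend reads, every stretch of 50 bases of each gene's transcript was looked up in all GENCODE M21 transcripts. Of the 83 genes with a transcript there, 20 had under 20% of their stretches unique to the gene, 33 had 20% to under 50%, 20 had 50% to under 80%, and 10 had 80% or more. Median levels per kb over all 12 libraries were 26.1, 33.8, 72.1 and 76.2 CPM per kb in these classes. Rps3 (97.0%) and Rpl8 (92.1%) were nearly free of shared stretches, Rpsa had 46.3% unique and shared the rest with 28 genes, and Rps27 had 1.35%. Rpl5 had 6.16% and Rps6 15.4%, so their levels are uncertain too. Across 81 genes with reads, the Spearman correlation of the unique percentage with the level per kb was 0.35, and across 79 tested genes that with the log2 fold change was -0.043, 0.25 and 0.14 for LDN against HDN, HDN against Naive and LDN against Naive. These are descriptions across genes, which share libraries.

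Higher levels in LDN were found in every class. Among tested genes, 16 of 20, 29 of 31, 18 of 20 and 8 of 8 were higher in LDN than in Naive, with medians of 1.21, 1.18, 1.23 and 1.38. Of the 28 tested genes with at least 50% unique stretches, 23 were higher in LDN than in HDN, 15 in HDN than in Naive and 26 in LDN than in Naive. Rpl35 and Rpl23a also overlap exons of other genes on the opposite strand over 66.2% and 59.7% of their length, and how the counting treated strand is not stated. Rpl13a overlaps exons of other genes on its own strand over 35.4% of its length, which no strand setting separates. The pseudogene symbol Rpl14-ps1 had 16059 reads in all, against 5557 for Rpl14 itself, so the level of Rpl14 is uncertain.

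**Figure D5:**
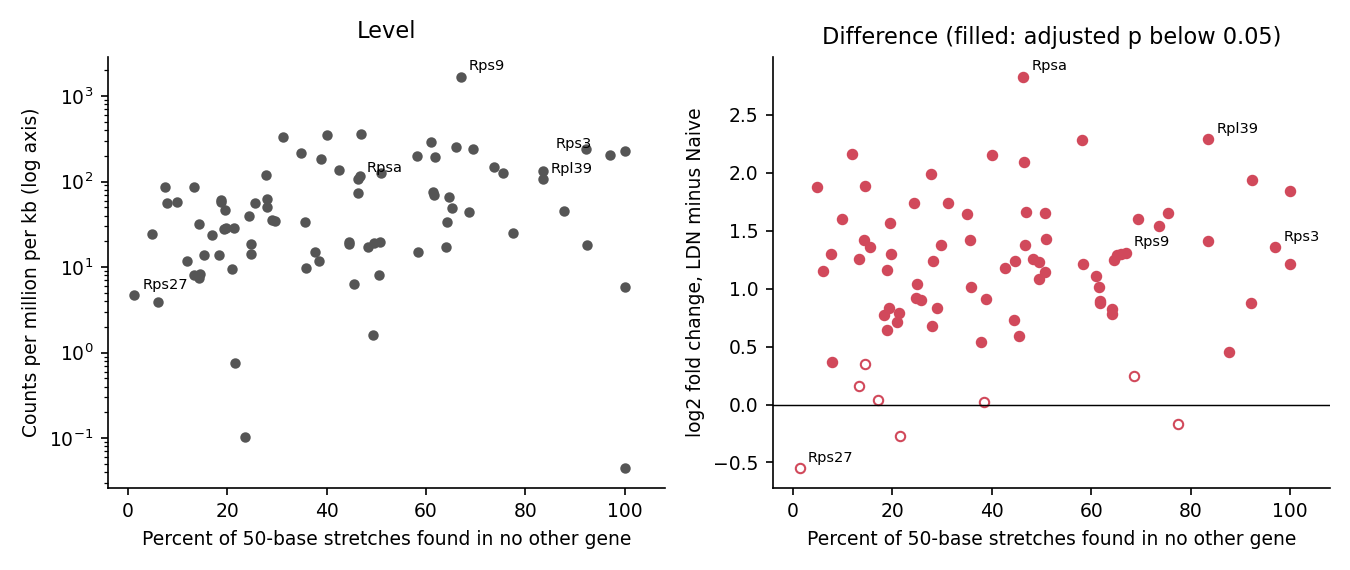
Percent of 50-base stretches of each gene's transcript found in no other gene (x axis) against its mean level in CPM per kb on a log axis (left) and its log2 fold change of LDN minus Naive (right, filled where the adjusted p was below 0.05). Most genes are above 0 on the right at every degree of uniqueness, from Rpl35 at 4.91% to Rps3 at 97.0%.

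Of the ribosomal proteins that the symbol rule does not reach, 3 were tested. Gnb2l1, which encodes the small-subunit protein Rack1, had means of 108.5, 188.8 and 406.3 CPM in Naive, HDN and LDN, with log2 fold changes of 0.80 from Naive to HDN and 1.11 from HDN to LDN, both passing. Rpl36al passed for LDN against HDN (1.14) and not for HDN against Naive (-0.46). Fau was not analysed here.

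The counts of the following lists stand beside shares of all tested genes of 26.0% higher and 20.3% lower in LDN against HDN, 30.0% and 29.9% in HDN against Naive, and 27.4% and 26.8% in LDN against Naive. Among 19 other genes whose messengers are known to carry the TOP motif, 10 were higher and 2 lower in LDN against HDN, 11 higher and 1 lower in HDN against Naive, and 14 higher and 1 lower in LDN against Naive. Their medians were 0.48, 0.46 and 1.08. The higher counts lay above and the lower counts below the shares of all genes. Eef1a1, the elongation factor that brings aminoacyl-tRNA to the ribosome, had means of 443.3, 999.9 and 1788 CPM in Naive, HDN and LDN and rose in both steps (1.17 and 0.84). Eef2, which moves the ribosome along, rose from 604.3 to 947.5 and 1322 CPM (0.65 and 0.48). They belong to 11 elongation and termination genes, of which 4 were higher in LDN against HDN. In HDN against Naive 6 were higher and 1 lower, and in LDN against Naive also 6 were higher and 1 lower. This list is too small to be read against the shares of all genes. Tpt1, a growth-related TOP messenger, rose from Naive to HDN (1.5, from 112.7 to 319.4 CPM) and did not pass from HDN to LDN (-0.12). The 2 that were lower in LDN than in HDN were Gas5 (-0.91), a non-coding host of small nucleolar RNAs, and Hnrnpa1 (-1.15).

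Genes for building ribosomes were called no more often than all genes in either direction, except for RNA polymerase I genes lower in LDN against HDN. Of those, 4 of 15 were lower, near the 20.3% of all genes, and the list is small. Of 39 genes for assembly of the small subunit, 5 were higher and 6 lower in LDN against HDN, 6 and 10 in HDN against Naive, and 4 and 10 in LDN against Naive. Of 48 for the large subunit, the counts were 7 and 6, 14 and 8, and 7 and 6. Of 15 RNA polymerase I genes, they were 2 and 4, 3 and 3, and 3 and 3. Their medians lay between -0.29 and 0.29 in all 3 comparisons. Nucleolin (Ncl) averaged 29.2, 29.8 and 22.8 CPM in Naive, HDN and LDN and nucleophosmin (Npm1) 7.5, 10.3 and 6.6, neither passing in any comparison. Fibrillarin (Fbl), the methyltransferase of ribosomal RNA, had means of 2.2, 0.7 and 1.3 CPM, falling by 1.76 in HDN against Naive and 1.00 higher in LDN against HDN. Polr1a, the catalytic subunit of RNA polymerase I, was lower in HDN than in Naive (-2.12, from 190.4 to 43.8 CPM). Ubtf, which activates ribosomal RNA genes, was lower in both steps (-0.38 and -0.38), from 151.0 to 116.4 and 89.2 CPM.

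Of 34 initiation factor genes, 8 were higher in LDN against HDN, 11 higher and 3 lower in HDN against Naive, and 15 higher and 3 lower in LDN against Naive. The higher counts were near the shares of all genes in both steps and above the share in LDN against Naive. Eif3h (0.99) and Pabpc1 (0.82), the poly(A)-binding protein, led the first of these. Of 20 aminoacyl-tRNA synthetase genes, 5 were higher in LDN against HDN, 6 higher and 5 lower in HDN against Naive, and 6 higher and 2 lower in LDN against Naive. Of 9 ribosome quality control genes, 4 were lower in LDN against HDN, 2 higher and 1 lower in HDN against Naive, and 1 higher and 3 lower in LDN against Naive. Among 22 regulators of ribosome production, 2 were higher and 5 lower in LDN against HDN, 7 and 5 in HDN against Naive, and 5 and 4 in LDN against Naive. The synthetase and regulator counts were near or below the shares of all genes, and the quality control list is too small to be read against them. Mtor (39.5, 44.7 and 50.6 CPM) passed for LDN against Naive (0.36) and in neither step, Larp1 was higher in HDN and LDN than in Naive (0.62 and 0.77), and Myc averaged 0.956, 0.373 and 0.550 CPM in Naive, HDN and LDN, lower in HDN than in Naive (-1.3).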

How the data were processed

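RNA was prepared with TRIzol and the RNeasy kit and sequenced after a stranded poly(A) library kit, per the labels' protocols. The authors deposited raw counts per gene symbol, and the submitters' processing notes name CASAVA 1.8.2, Trimmomatic, STAR and DESeq2 1.16.1. Genome build, annotation, read length and strand setting were not stated, and the deposited comparison tables were not used. The table has no rows without a gene name.

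Counts were fitted with edgeR 4.0.16 (filterByExpr, TMM, robust glmQLFit with group only over all 12 libraries, glmQLFTest, Benjamini-Hochberg over 10604 genes, threshold 0.05), with the SE as the fold change over the square root of F. Fold changes are log2 differences. DESeq2 1.42.0, limma-voom (limma 3.58.1), other scalings, no filter, 2-group fits, and leaving out each library were alternatives. Shares were compared by exact two-sided permutation of the difference in means (scipy 1.17.1) over 70 arrangements. A changed sign counts as a reversal where either value passed.

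HDN and LDN libraries of the same number deviated together (r = 0.385, 0.760, 0.495 and 0.315 over all genes for numbers 3, 4, 5 and 7; unlike numbers ran from -0.608 to 0.412, and HDN 3 was closer to LDN 5, at 0.412, than to LDN 3), so the numbers were taken to pair them, from the data rather than from a label. The p-values of single genes and paralog shares between LDN and HDN ignore this pairing, except where the block is named. Uniqueness came from GENCODE M21 transcripts (the shortest complete principal transcript, with none for Rps4l) and promoters from RefSeq. Some symbols of the lists were not analysed here, and some genes that the naming rule reaches are not reported here; they stay in the counts. Named genes were, for each comparison, the 6 highest and 6 lowest tested fold changes, those passing against the majority, the 6 most abundant, a fixed set and the paralog pairs, and from other lists up to 4 by fold change with mean log2 CPM of at least 4, with a fixed set of genes. Rpl37, Rpl14, Rpl35, Rpl23a, Rpl36al and Hnrnpa1 were added after their values were seen. The genes, lists and tests were chosen with earlier results of these data known.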

Additional observations from a re-analysis of the deposited data

Results flagged for a closer look

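Among 129 groups of 4 libraries looked at, 12 held a library further from the others than Dixon's 95% limit for 4 values allows; chance alone gives about 1 in 20. The share of counts in all ribosomal protein genes was 0.725% in HDN 4, against 0.541% to 0.567% in the other HDN libraries, and that in small-subunit genes was 0.437%, against 0.335% to 0.353%. HDN 4 also held the highest HDN values of Rpl32 (104.8 CPM, others 64.6 to 70.2), Rpl7l1 (55.96, others 41.8 to 43.8) and Rplp2 (129.6, others 71.6 to 73.7). LDN 4, the library of the same number, stood out for Rpl32 (272.4 CPM, others 206.1 to 211.7), Rplp0 (556.1, others 420.9 to 442.9) and Rps19 (108.7, others 79.1 to 84.02). LDN 7 was low for Rps4x (180.7 CPM, others 216.8 to 224.2). Single libraries also stood out for Rpl3 (HDN 7, 9.729 CPM, others 7.00 to 7.09), Rpl36a (Naive 3, 2.643 CPM, others 1.76 to 1.88) and Rpl29 (LDN 3, 0.543 CPM, others 0.279 to 0.323). Over all 80 tested genes, HDN 4 was the highest HDN library for 68 and LDN 4 the highest LDN library for 59.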

How the results depend on the processing

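The counts of higher genes stayed within 1.5 times of 66, 40 and 71 in every setting apart from total-count scaling for LDN against HDN (40 higher) and the genes with at least 50% unique stretches, a smaller set chosen after seeing the data (23, 15 and 26 of 28 tested). Genes lower in LDN against HDN numbered 0, but 1 with total counts and 1 with the replicate block, and 0 to 1 when 1 library was left out (1 without HDN 3). Genes lower in HDN against Naive numbered 3, but 6 with upper quartile scaling, 1 with total counts, 8 without the 20 most abundant genes, 0 among genes with at least 50% unique stretches, and 1 to 4 when 1 library was left out (1 without Naive 3, HDN 3 or HDN 5). Against the ribosomal protein total without Rps9, 24 genes in place of 14 were lower in LDN against HDN, and 11 in place of 5 were higher and 22 in place of 36 lower in HDN against Naive; the first of these was 9 to 14 when 1 library was left out (9 without LDN 4). The share difference between LDN and HDN was 0.334 points without the 20 most abundant genes, 0.211 without Rps9, and 0.153 to 0.231 when 1 library was left out. With only the genes of at least 50% unique stretches it was 0.0890 points (exact permutation p = 0.0857). Without genes that have a -ps symbol it was 0.174 points (exact permutation p = 0.0571). Paired by the replicate block, the difference over all 84 genes remained 0.189 points (exact sign-flip p = 0.125). The cause of these shifts was not tested. No result that passed in either setting changed sign, and the number of libraries, 4 a group, limits every exact test to a p of 0.0286 or more. The limit used for genes with no reads covers counting error only. The genes with under 500 reads in all (Rpl29, Rpl34, Rps27) carry the least depth.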
